A study of Mus musculus with 18 samples.

Results

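Nuclear genes encode most subunits of the 5 protein complexes of oxidative phosphorylation (OXPHOS), and the transcripts of these genes were followed in 2 brain regions, the bed nucleus of stria terminalis, or BNST, and the prelimbic medial prefrontal cortex, or mPFC, of mice after a painful injection. Members were the protein-coding genes whose symbol begins with Ndufa, Ndufab, Ndufb, Ndufc, Ndufs or Ndufv and a number, Uqcr, Cox4 to Cox8 or Atp5, or is Sdha, Sdhb, Sdhc or Sdhd, with at least 10 counts in at least 3 of the 18 libraries. This gave 82 of the 55401 gene identifiers in the count table: 35 of complex I, 4 of complex II, 8 of complex III, 18 of complex IV and 17 of complex V. Ndufa4 and Ndufa4l2 were placed in complex IV, where the Ndufa4 protein is found. The prefixes also take in Cox7a2l, which is known as a supercomplex assembly factor, and Atp5s, which is not a core part of the ATP synthase, and they miss Cyc1 of complex III. All 82 members had enough counts to be tested.

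The mice were adult wild-type C57BL/6 males of 6 to 8 weeks, and each region had 3 libraries in each of 3 groups. Formalin mice received 10 μL of 1% formalin and were sampled at 24 h, and CFA mice received 10 μL of 50% complete Freund's adjuvant (CFA) and were sampled at 72 h. The agent and the time of sampling therefore cannot be told apart in any comparison between the formalin and CFA groups. Control mice had no injection according to the methods of the study, whose figure legends call them sham-treated.

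In OXPHOS, complex I and complex II take electrons from NADH and succinate, complex III passes them on through cytochrome c, and complex IV hands them to oxygen. Complexes I, III and IV pump protons across the inner mitochondrial membrane, and complex V, the ATP synthase, lets the protons flow back and makes ATP. Mitochondrial DNA encodes a few hydrophobic core subunits, complex II is wholly nuclear, and neurons depend heavily on this pathway for the cost of ion pumping and synaptic transmission. Core subunits carry the redox centres or the catalytic sites, whereas accessory subunits surround them and are needed for assembly and stability.

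The libraries held 14781315 to 23408503 counts. Levels of 1 gene across libraries are given as CPM, the counts scaled to library size, after adjustment by the trimmed mean of M values (TMM), and levels of different genes are compared as TPM, which also divides by exon length. Each difference is a log2 fold change (log2FC) with its standard error (SE) from 1 edgeR quasi-likelihood model of the 18 libraries, and p-values were adjusted by the Benjamini-Hochberg method over the 18994 genes tested. A gene passed at an adjusted p under 0.05, and it was called a differentially expressed gene (DEG) when its absolute log2FC was also above 0.5. By the methods of the study, the 3 libraries of a group came from 3 mice and both regions were taken from each brain, so BNST and mPFC libraries of a treatment share mice, which the model does not take into account. Markers of cortical pyramidal neurons were lower in BNST than in mPFC control libraries for 6 of 6 genes, and markers of striatum were higher for 7 of 7. In bulk tissue, fewer cells of a type and less RNA per cell cannot be told apart. BNST CFA replicate 2 stood apart in its choroid plexus markers, and BNST control replicates 1 and 2 and BNST formalin replicate 1 were sequenced in other lanes than the remaining libraries, so counts that rest on these libraries are also given without them.

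Per unit of exon length, subunits of complex IV and the β subunit of the ATP synthase were the most abundant members. Cox8a and Cox6a1, small nuclear subunits of cytochrome c oxidase, averaged 1241 and 927 TPM over the 18 libraries. Atp5b, the catalytic β subunit of complex V, averaged 798 TPM, and Cox4i1, a regulatory subunit of complex IV, averaged 679 TPM. The highest members of complexes II and III were Sdha, the flavoprotein of complex II, at 371 TPM, and Uqcrfs1, the Rieske iron-sulfur protein of complex III, at 292 TPM. In all, 44 members averaged 100 TPM or more. On the CPM scale Atp5b alone held 14.5% to 14.9% of the summed level of the members, whichever the group.

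Some core subunits were far lower than their partners in the same complex, and their counts went with particular libraries. Ndufs3, a core subunit of complex I on chromosome 2 (90894634 to 90904827, GRCm38), had at most 1 count in any library and so missed the minimum for members. Uqcrc1, a core protein of complex III on chromosome 9 (108936633 to 108949623), averaged 14 TPM, beside 204 TPM for its partner Uqcrc2. Its level was 103 CPM in BNST control replicate 3, 64.0 CPM in mPFC control replicate 2 and 36.1 CPM in BNST CFA replicate 2, and 2.98 to 4.82 CPM in the other 15 libraries. Atp5a1, the α subunit that forms the catalytic head of complex V together with Atp5b, averaged 25.2 TPM. It held 113 CPM in mPFC formalin replicate 1 and 11.0 to 22.7 CPM in the other 17 libraries. No change of Uqcrc1 or Atp5a1 passed the test in any comparison, and why their counts were low was not tested. Cox7b2, Cox8c and a second identifier of Atp5o also missed the minimum.

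Several complex IV subunits exist as a common form and a form known from muscle, testis or lung, and in both regions the common form was far higher. Cox4i1 averaged 679 TPM against 2.9 TPM for Cox4i2, and Cox8a averaged 1241 TPM against 3.02 TPM for Cox8b. Cox6a2 averaged 16.1 TPM, Cox6b2 averaged 6.61 TPM, Cox7a1 averaged 4.1 TPM and Ndufa4l2 averaged 3.43 TPM. The 3 genes of the ATP synthase c ring, which encode the same mature protein, were closer to one another, at 199 TPM for Atp5g3, 83.6 TPM for Atp5g2 and 61.7 TPM for Atp5g1. The value of Atp5g2 is uncertain, because 34.7% of its 100-base windows also occur in other annotated genes.

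**Figure D1:**
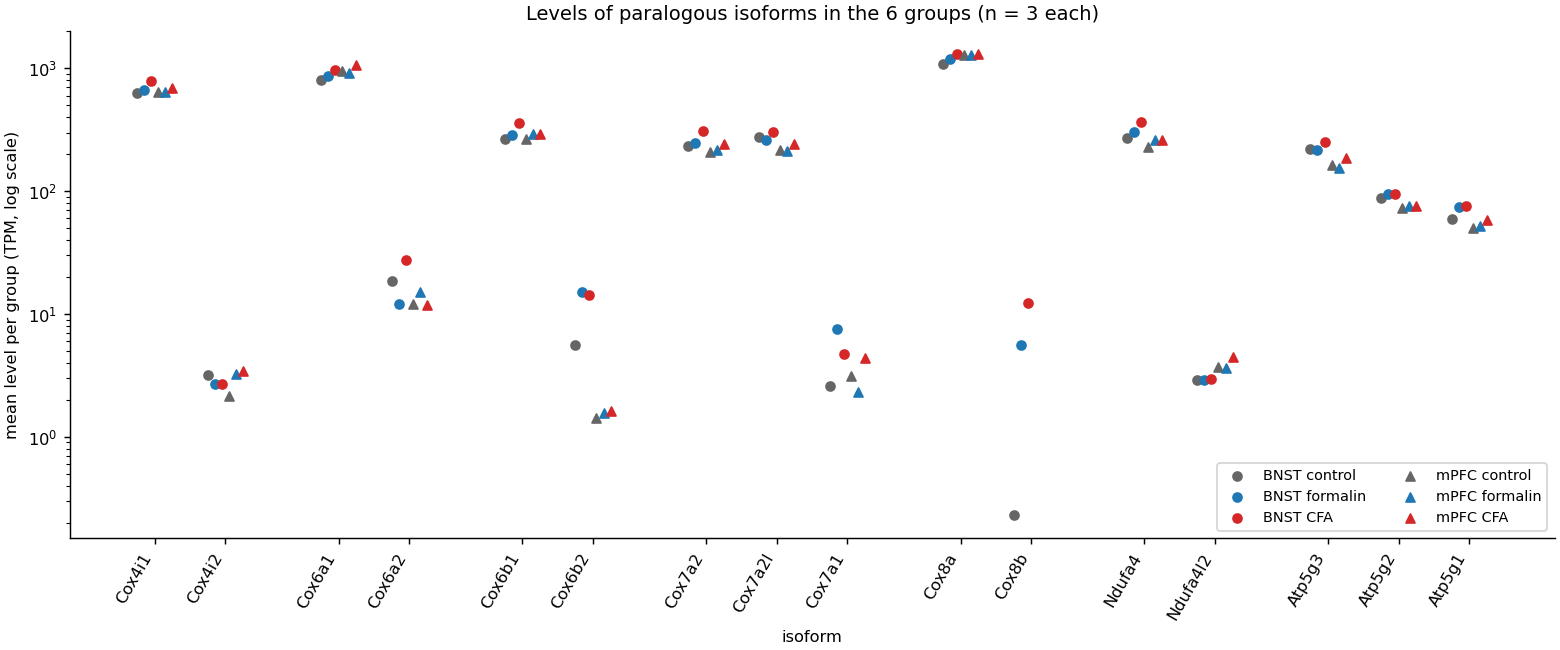
Mean level of each paralogous isoform in the 6 groups, in TPM on a log scale, with circles for the BNST and triangles for the mPFC and 3 libraries per point. Cox8b is not drawn in the mPFC, where it had 0 counts in every library, and in the BNST it lies far below Cox8a.

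Cox8b, the heart and muscle form of subunit VIII, had 0 counts in the 9 mPFC libraries. In the BNST it had 1, 0 and 0 counts in control libraries, 10, 5 and 15 counts after formalin and 3, 72 and 1 counts after CFA. Cox6b2, known from testis, had 1.42, 1.64 and 1.42 CPM in BNST control libraries, 2.59, 5.96 and 3.87 CPM after formalin and 2.15, 9.51 and 1.64 CPM after CFA. Both genes were highest in BNST CFA replicate 2. The summed level of 10 choroid plexus markers was also highest in that library, at 17795 CPM, beside 178 and 218 CPM in the other CFA libraries, 2938 to 8873 CPM after formalin and 35 to 746 CPM in control libraries. None of the 10 markers was at 0 throughout a BNST group. Neither gene passed in a treatment comparison, and the part of the choroid plexus markers in these values was not tested.

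CFA in the BNST was the 1 condition in which the members differed from control in large number. The summed level of the 82 members was 6218, 5823 and 5075 CPM in the 3 control libraries, 5701, 5719 and 6303 CPM after formalin and 7198, 7700 and 7119 CPM after CFA. All CFA libraries lay above all control and formalin libraries, whereas formalin and control overlapped. In the comparison of CFA with control, 56 members were higher and 0 were lower, beside 11.0% of all tested genes higher and 11.7% lower. The members that were higher made up 68.3% of the 82. Of these, 18 were DEGs, beside 4.89% of all genes called higher. The median log2FC of the members was 0.39 (quartiles 0.30 and 0.52), whereas that of all genes was 0.01. The groups did not overlap for 54 members, all higher, beside 15.4% of all genes. Uqcrc1 and Cox4i2 were the members with a log2FC below 0.

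**Figure D2:**
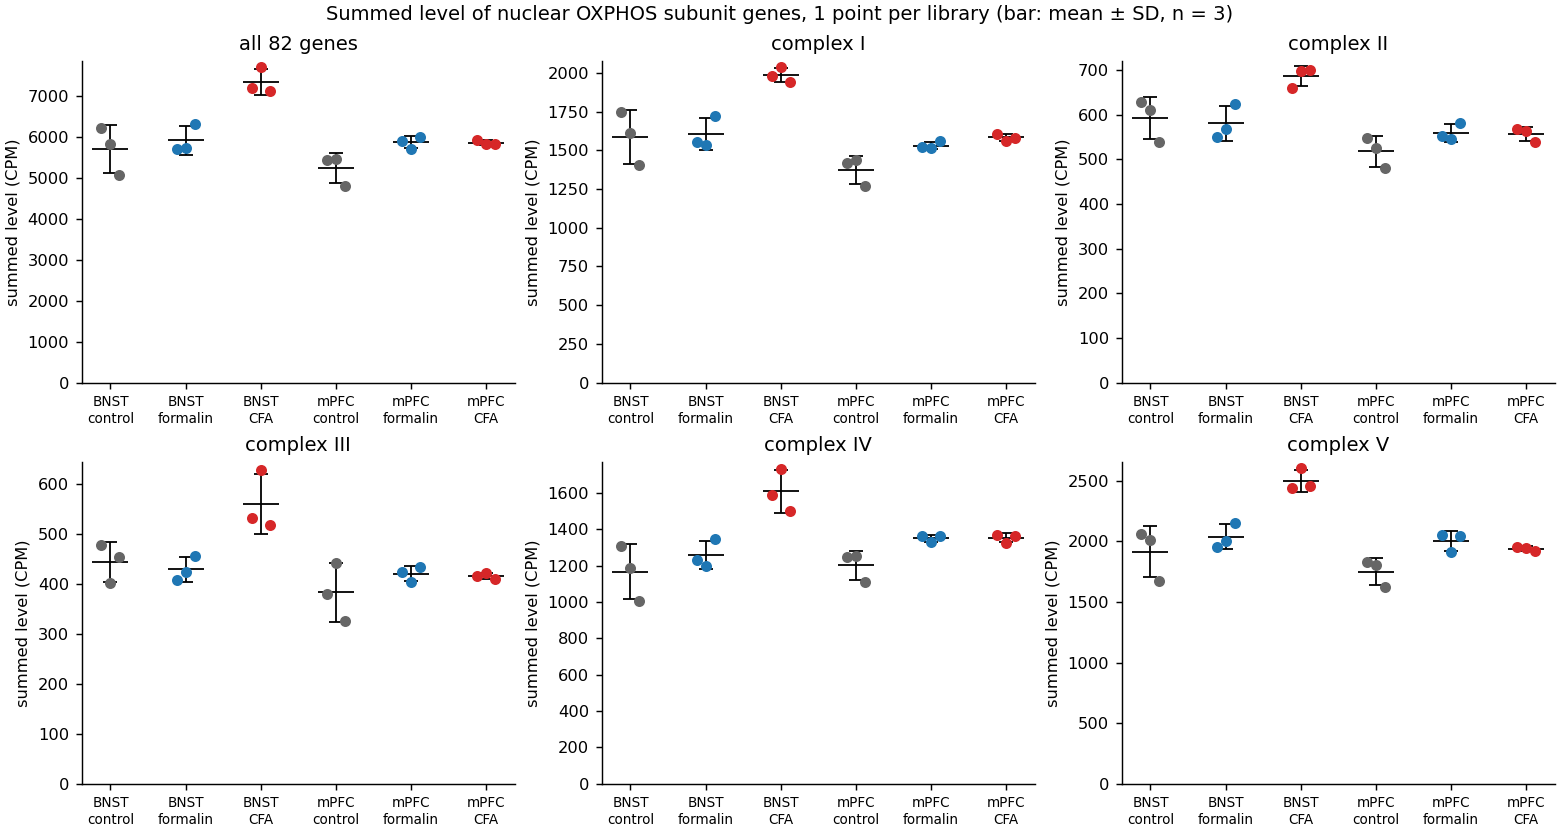
Summed level in CPM of all members and of the members of each complex, 1 point per library, with the mean and SD of the 3 libraries as bars. The BNST CFA libraries, at 7119 to 7700 CPM over all members, lie above every other library.

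In complex I, 24 of 35 members were higher after CFA, with a median log2FC of 0.37, and 7 of them were DEGs. Of the core members 2 of 6 were higher and of the accessory members 22 of 29, with medians of 0.23 and 0.38, and the difference between these shares was not tested. Ndufv2 and Ndufs8, core subunits that hold iron-sulfur clusters, were the core members that passed, with a log2FC of 0.37 ± 0.07 and 0.35 ± 0.10 (SE; adjusted p = 0.0022 and 0.021). The call of Ndufs8 was lost without BNST control replicate 3. Ndufs1 also holds iron-sulfur clusters of the peripheral arm. It had 139, 126 and 123 CPM in control libraries and 136, 139 and 141 CPM after CFA. The groups overlapped (log2FC 0.10 ± 0.06, adjusted p = 0.26). Ndufs7 and Ndufv1, the latter of which binds NADH, had a log2FC of 0.14 and 0.28 and did not pass.

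The accessory subunit Ndufs6, which carries a zinc site needed late in assembly, lies on chromosome 13 (73319838 to 73328542). It held 16.3, 11.6 and 10.5 CPM in control libraries and 20.7, 21.8 and 16.6 CPM after CFA. The groups did not overlap, and the log2FC was 0.62 ± 0.16 (adjusted p = 0.0094). Ndufa1, a small membrane subunit encoded on the X chromosome (37187588 to 37191163), held 11.4, 7.99 and 7.24 CPM in control libraries. After CFA it held 13.1, 18.4 and 10.8 CPM, so 1 control library lay above the lowest CFA library. Its log2FC of 0.67 ± 0.19 passed (adjusted p = 0.016), but not without BNST control replicate 2, control replicate 3 or CFA replicate 2. Ndufb11, also on the X chromosome, rose by a log2FC of 0.56 ± 0.13 (adjusted p = 0.0064).

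In complex II, 2 of 4 members were higher, and its median log2FC of 0.24 was the lowest of the 5 complexes. Sdhb, the iron-sulfur subunit, and Sdhd, a membrane anchor, rose by a log2FC of 0.26 ± 0.09 and 0.38 ± 0.08 (adjusted p = 0.045 and 0.0036). The call of Sdhb held in 5 of the 18 fits that left out 1 library, and that of Sdhd in all 18. Sdha held 426, 416 and 379 CPM in control libraries and 446, 449 and 486 CPM after CFA. Its groups did not overlap, but the log2FC of 0.18 ± 0.08 did not pass (adjusted p = 0.10).

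In complex III, 7 of 8 members were higher, with a median log2FC of 0.45, and the exception was Uqcrc1. Uqcrb, a small subunit near the quinone site, lies on chromosome 13 (66900617 to 66905378) and held 40.1, 32.4 and 30.5 CPM in control libraries and 50.7, 63.4 and 46.6 CPM after CFA. It rose by a log2FC of 0.64 ± 0.12 (adjusted p = 0.00087), with no overlap. Uqcrh, the hinge protein that holds cytochrome c1, lies on chromosome 4 (116066965 to 116075071) and held 68.9, 55.2 and 49.7 CPM in control libraries. It held 87.6, 93.5 and 80.8 CPM after CFA, which gave a log2FC of 0.59 ± 0.12 (adjusted p = 0.0025). Uqcr10 rose by 0.57 ± 0.17 (adjusted p = 0.020), with 1 control library above the lowest CFA library, and this call was lost without BNST control replicate 2, control replicate 3 or CFA replicate 2. Uqcrfs1 and Uqcrc2 rose by 0.34 ± 0.08 and 0.30 ± 0.09, and the call of Uqcrc2 was lost without the same libraries as that of Uqcr10.

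Complex IV had the highest median log2FC, 0.50, but this median includes 6 members measured on few counts. Their log2FC ran from −0.10 for Cox4i2 to 5.55 for Cox8b, so the rank of the complex is uncertain. The 12 members above 5 CPM were all higher, and the 6 that did not pass were Cox4i2, Cox6a2, Cox6b2, Cox7a1, Cox8b and Ndufa4l2, which averaged 0.296 to 2.87 CPM and so were measured on few counts. Cox7b, a small subunit encoded on the X chromosome (106015700 to 106022450), had the smallest adjusted p of the members. It held 67.6, 53.9 and 49.5 CPM in control libraries and 91.9, 108 and 87.6 CPM after CFA. Every CFA library was above every control library, and the log2FC was 0.75 ± 0.12 (adjusted p = 0.00029).

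Ndufa4, on chromosome 6 (11900292 to 11907497), held 109, 85.2 and 78.9 CPM in BNST control libraries and 128, 151 and 131 CPM after CFA (log2FC 0.59 ± 0.11, adjusted p = 0.00094). Cox6b1, which joins the monomers of the complex IV dimer, held 57.9, 42.4 and 36.4 CPM in control libraries and 70.4, 67.9 and 65.9 CPM after CFA (log2FC 0.58 ± 0.11, adjusted p = 0.0014). Neither gene overlapped between the groups. Cox6c and Cox7a2 were DEGs as well, at 0.56 ± 0.14 and 0.54 ± 0.13. The abundant Cox8a and Cox6a1 rose by 0.42 ± 0.09 and 0.42 ± 0.10 (adjusted p = 0.0027 and 0.0054), Cox4i1 by 0.45 ± 0.09 (adjusted p = 0.0012), and the structural subunits Cox5a and Cox5b by 0.36 ± 0.10 and 0.30 ± 0.09, the last not without BNST control replicate 3.

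In complex V, 11 of 17 members were higher, with a median log2FC of 0.39. Atp5b, on chromosome 10 (128083273 to 128090391), held 867, 899 and 726 CPM in control libraries and 1062, 1065 and 1097 CPM after CFA. The groups did not overlap, and it rose by a log2FC of 0.37 ± 0.09 (adjusted p = 0.0057). Atp5c1, the γ subunit of the rotor, rose by 0.35 ± 0.08 (adjusted p = 0.0036). Of the c ring genes, Atp5g1 was a DEG at 0.50 ± 0.12 (adjusted p = 0.0058), Atp5g2 rose by 0.24 ± 0.08 (adjusted p = 0.045) and Atp5g3 had a log2FC of 0.35 ± 0.14 that did not pass (adjusted p = 0.075). The call of Atp5g2 held in 6 of the 18 fits that left out 1 library. Atp5h and Atp5mpl were the other DEGs.

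**Figure D3:**
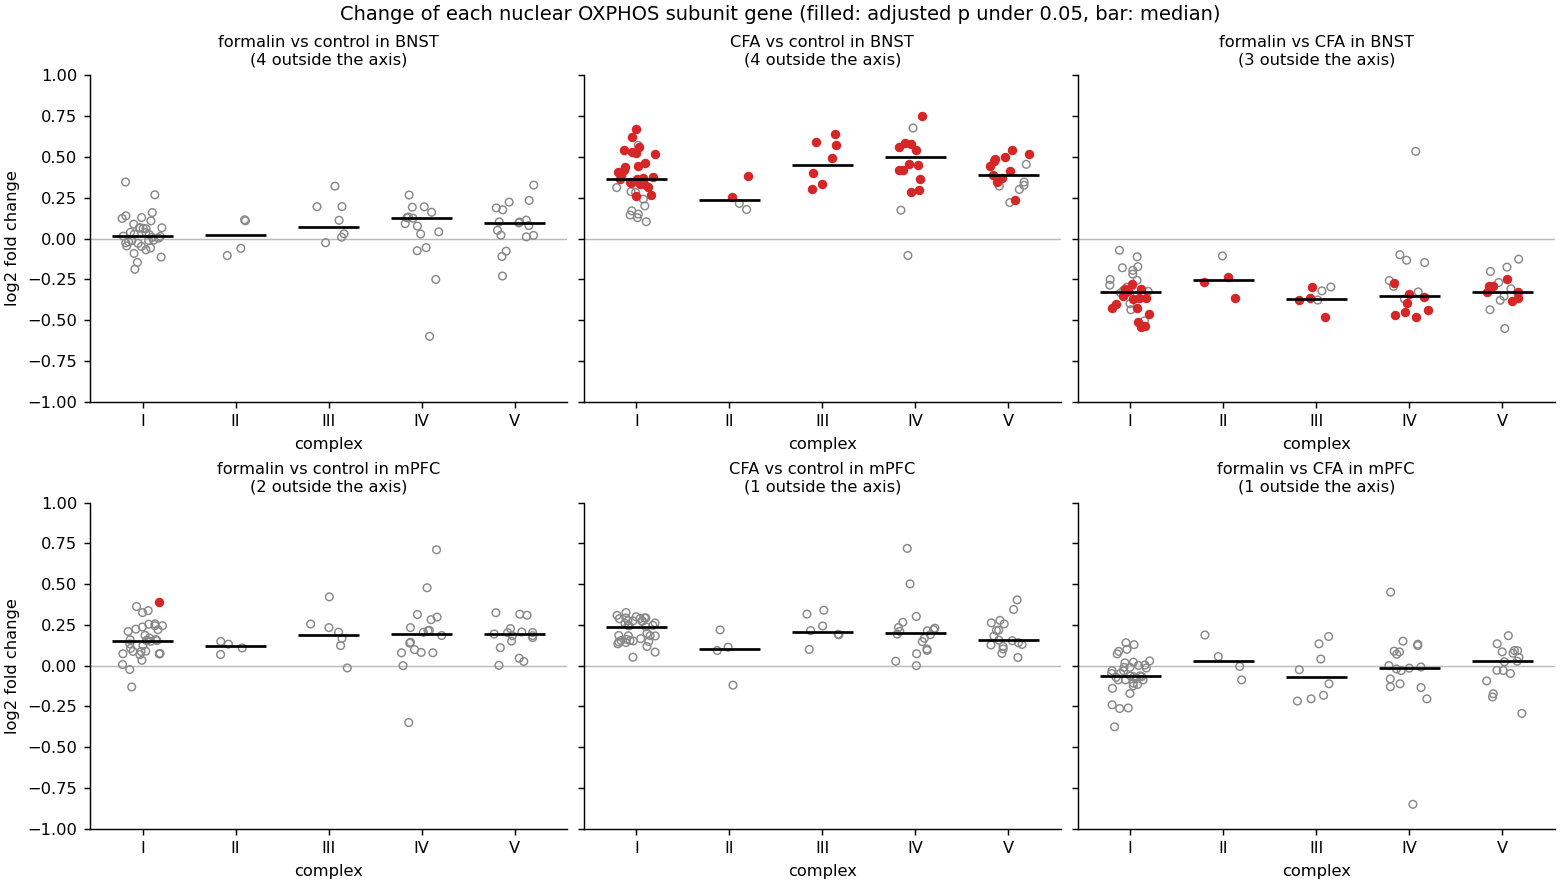
The log2FC of every member by complex in the 6 treatment comparisons, with filled points for an adjusted p under 0.05 and bars for the median of each complex. In the CFA comparison of the BNST 56 points are filled, and in the formalin comparison none is. The number of members beyond the axis, all unfilled, stands above each panel.

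The number of members that passed varied with the treatment of exon length and with single libraries. Members are short, with a median exon length of 1560 bp against 3771 bp for all tested genes, and in the CFA comparison of the BNST short genes in general were higher. Among protein-coding genes at 10 CPM or more that are not members, the median log2FC fell from 0.33 for exon lengths up to 800 bp to −0.02 for those over 5000 bp. The members of these classes had medians of 0.53 and 0.40, and 69 of the 74 members at 10 CPM or more lay above the median of their class. When the length trend of these protein-coding genes was fitted in each library and used as an offset, 21 members were higher, 1 of them a DEG, and their median log2FC was 0.21, while 8.32% of all genes were higher. The 21 included Cox7b (0.50), Cox6c (0.51), Uqcrb (0.34), Uqcrh (0.34), Ndufa4 (0.36), Atp5b (0.34) and Atp5g1 (0.48), and 8 of them belonged to complex V. Members described above that no longer passed with this offset included Cox8a (0.42 without it and 0.07 with it), Cox6a1 (0.42 and 0.10), Uqcrfs1 (0.34 and 0.11), Ndufs8 (0.35 and 0.11), Sdhd (0.38 and 0.14) and Atp5c1 (0.35 and 0.17). The same held for the DEGs Ndufa1 (0.67 and 0.30), Ndufs6 (0.62 and 0.33), Uqcr10 (0.57 and 0.24), Ndufb11 (0.56 and 0.26) and Cox7a2 (0.54 and 0.26). No member of complex II passed with the offset. An offset for the length trend of all genes left 51 members higher.

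**Figure D4:**
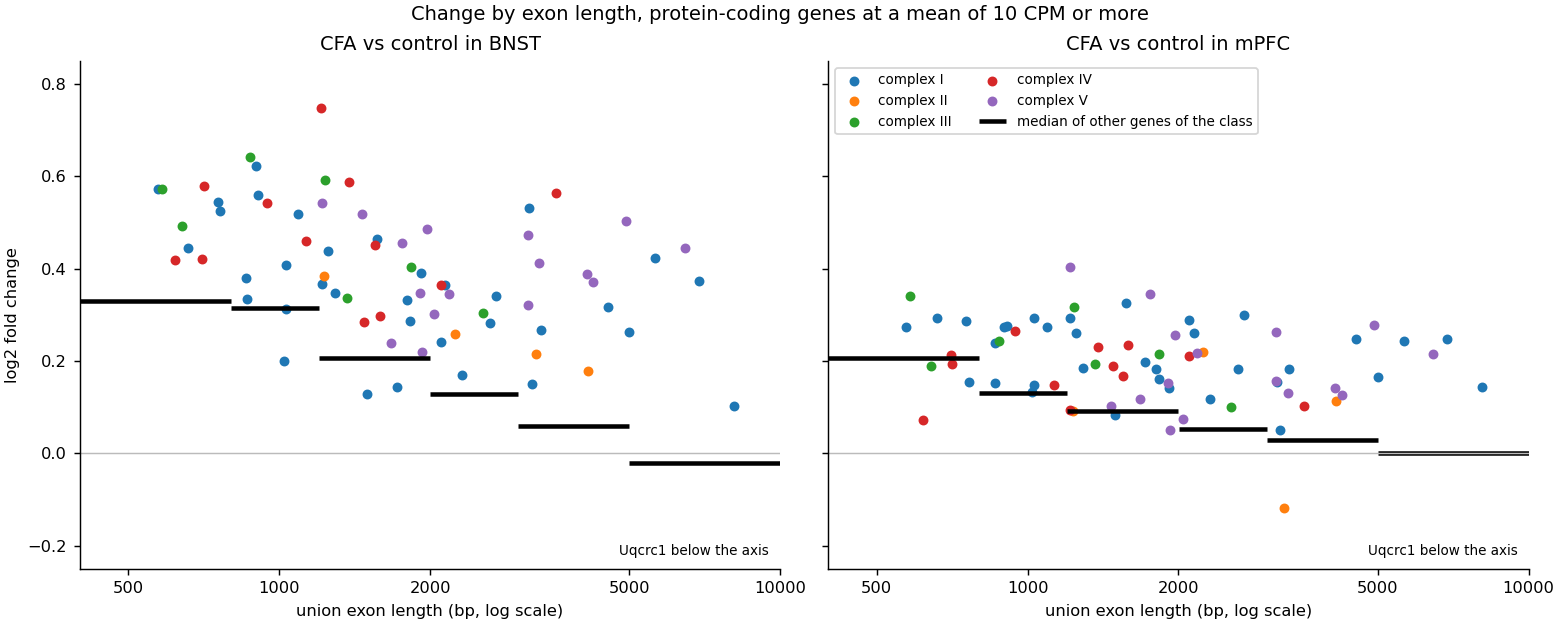
The log2FC after CFA against exon length on a log scale for the members at 10 CPM or more, coloured by complex, with black bars for the median of all other protein-coding genes of each length class. In the BNST the bars fall from 0.33 to −0.02 with length, and 69 of 74 members in the BNST and 66 in the mPFC lie above them. Uqcrc1 lies below the axis.

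Without BNST control replicate 3, the control library with the lowest summed level and the only one from the lane of the CFA libraries, 33 members were higher and 4 were DEGs. Without control replicate 1, 59 were higher and 34 were DEGs. Without CFA replicate 2, the library with the most choroid plexus markers, 38 were higher and 8 were DEGs. With only the libraries of that lane, which left this 1 control library and took its spread from the other groups, 66 were higher and 49 were DEGs. This count rests on the control library with the lowest summed level. A fit of the 9 BNST libraries alone gave 26 higher members. For these sets of libraries the share of all genes that passed is not given. In all 18 fits that left out 1 library, 32 of the 56 members passed. The tissue also differed in other ways that go with the groups: 7 of 7 striatal markers were lower after CFA (224.6 to 583 CPM in sum, against 1289 to 3207 CPM in control libraries) and 3 of 6 markers of habenula and thalamus were higher (240.04 to 436 CPM against 167 to 217 CPM). Astrocyte markers were higher for 3 of 5 genes, with a median log2FC of 0.42, close to the 0.39 of the members, at 1564 to 1649 CPM in sum against 1124 to 1579 CPM. None of these markers was at 0 throughout a BNST group, and their part in the OXPHOS result was not tested.

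Transcription of nuclear OXPHOS genes is known to depend on NRF1, on the ETS factor GABPA and, for some subunits, on YY1, and on the coactivator that Ppargc1a encodes. Of 13 such regulators and of factors for mitochondrial transcription, 3 were higher and 1 was lower in the BNST after CFA. Over all tested genes, 11.0% were higher and 11.7% were lower. Ppargc1a rose by a log2FC of 0.47 ± 0.08 (adjusted p = 0.00066), Esrrg by 0.92 ± 0.30 (adjusted p = 0.044) and Tfam, which packages mitochondrial DNA, by 0.29 ± 0.09 (adjusted p = 0.032). Ppargc1b had a log2FC of −0.52 ± 0.12 (adjusted p = 0.0070). Nrf1, Gabpa and Yy1 were among the 9 that did not pass. The part of these regulators in the OXPHOS result was not tested.

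Promoters of 67 members were found in the RefSeq table of GRCm38.p6, each with 250 bases before the start of transcription and 50 after it. On either strand, the NRF1 motif GCGCATGCG was present in 8 members (11.9%, against 2.6% of 17491 protein-coding genes), the GABPA motif CCGGAAG in 15 (22.4% against 12.9%) and the YY1 motif AAGATGGCG in 7 (10.4% against 2.1%). At least 1 of the 3 motifs was present in 25 members, or 37.3%, against 16.6% of all genes. The genes set beside the members were not limited to those expressed in the 2 regions, so these shares do not compare members with other expressed genes. A match of letters does not show that a factor binds. The 120 bases before the start of 4 genes that were DEGs after CFA and hold a motif there are shown with the motif in capitals, and those of Cox7b, the member with the largest called change, are shown as an example without any of the 3. The motif of Ndufa11 begins 60 bases before the RefSeq start and reads on both strands, with overlap. Those of Atp5h, Cox6b1 and Uqcrh begin 38, 28 and 10 bases before it. By GENCODE, which gave the positions of the members, Atp5h and Cox6b1 start farther upstream, at 115419962 and 30626151. Their motifs therefore lie within the genes by that annotation.
Ndufa11, chr17:56717642-56717761, plus strand: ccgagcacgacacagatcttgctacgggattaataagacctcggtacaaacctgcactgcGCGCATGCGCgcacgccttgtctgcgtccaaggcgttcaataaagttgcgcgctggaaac
Atp5h, chr11:115419920-115420039, minus strand: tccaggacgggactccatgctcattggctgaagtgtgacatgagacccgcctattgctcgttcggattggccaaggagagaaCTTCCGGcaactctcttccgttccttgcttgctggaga
Cox6b1, chr7:30626115-30626234, minus strand: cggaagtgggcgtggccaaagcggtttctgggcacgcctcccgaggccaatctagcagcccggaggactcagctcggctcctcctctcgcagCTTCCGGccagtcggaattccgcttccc
Uqcrh, chr4:116075071-116075190, minus strand: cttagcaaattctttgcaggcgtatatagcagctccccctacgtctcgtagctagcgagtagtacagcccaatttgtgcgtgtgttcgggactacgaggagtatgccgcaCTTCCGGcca
Cox7b, chrX:106015580-106015699, plus strand: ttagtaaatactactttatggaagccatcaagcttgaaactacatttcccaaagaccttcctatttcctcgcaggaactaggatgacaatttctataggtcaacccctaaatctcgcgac

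Other genes linked to OXPHOS were counted in the same comparison of CFA with control in the BNST. Cycs and Cyc1, the genes of cytochrome c and cytochrome c1, rose by a log2FC of 0.50 ± 0.07 and 0.36 ± 0.09 (adjusted p = 0.00015 and 0.0074). Of the 13 subunits that mitochondrial DNA encodes, mt-Nd6 alone was higher, and their median log2FC was 0.22. Of 45 tested assembly factors, 7 were higher and 1 was lower, beside 11.0% and 11.7% of all tested genes, with Ndufaf4 at 0.51 ± 0.09. Of 16 genes of the TCA cycle, 7 were higher, among them Suclg2 and Idh3a at 0.54 ± 0.15 and 0.37 ± 0.08. Mitochondrial ribosomal proteins gave 25 higher and 1 lower of 75, and cytosolic ribosomal proteins, which are no part of OXPHOS but are encoded by short genes as well, gave 65 higher of 80, with a median log2FC of 0.42. Among protein-coding genes at 10 CPM or more that are not members, 26.9% to 36.4% were higher in the length classes up to 2000 bp. The differences between these lists were not tested.

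Formalin in the BNST gave no member that passed, beside 0.484% of all tested genes. The edgeR model, DESeq2 and limma-voom each passed 0 members. In edgeR 8 of 82 members had an unadjusted p under 0.05, beside 3726 of 18994 genes tested. Without BNST CFA replicate 2, which belongs to neither group, 4 passed. That library enters through the choice of genes tested, the TMM factors and the shared estimate of the spread. The median log2FC was 0.06. Cox7a1, the muscle form of subunit VIIa, had the smallest adjusted p, 0.13, with 2, 9 and 6 counts in control libraries and 11, 20 and 29 counts after formalin. The counts did not overlap but were few. Atp5g1 held 76.8, 74.2 and 62.7 CPM in control libraries and 86.3, 88.8 and 93.2 CPM after formalin, also without overlap, and its log2FC of 0.33 ± 0.12 did not pass (adjusted p = 0.16). Uqcrb and Atp5j, a peripheral subunit of the ATP synthase, had a log2FC of 0.32 ± 0.12 and 0.22 ± 0.08 (adjusted p = 0.159 and 0.164).

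In the direct comparison within the BNST, 39 members were lower after formalin than after CFA and 0 were higher, beside 8.77% of all genes lower. The median log2FC was −0.33. Among protein-coding genes at 10 CPM or more that are not members, the median ran from −0.30 for exon lengths up to 800 bp to −0.002 for those over 5000 bp. The members of these classes had medians of −0.44 and −0.29. With the length trend of protein-coding genes as an offset, 13 members were lower, 12 of them among the 39, beside 6.18% of all genes. This comparison shares its CFA libraries with that of CFA against control. The groups did not overlap for 64 members, all lower after formalin, beside 17.8% of all genes. The 4 DEGs, beside 2.96% of all genes called lower, were all accessory subunits of complex I. Ndufb2 held 21.3, 25.6 and 24.6 CPM after formalin and 32.7, 38.4 and 32.7 CPM after CFA, without overlap (log2FC −0.54 ± 0.10, adjusted p = 0.0025). Ndufc2 held 22.6, 22.1 and 26.3 CPM after formalin and 32.5, 38.7 and 32.2 CPM after CFA, again without overlap (log2FC −0.54 ± 0.12, adjusted p = 0.0055). With the length offset of protein-coding genes, Ndufb2 kept a log2FC of −0.52 (adjusted p = 0.0021), whereas Ndufc2 had −0.31 and did not pass (adjusted p = 0.067), nor did Ndufb6 or Ndufs6. Ndufb6 and Ndufs6 had a log2FC of −0.54 ± 0.16 and −0.51 ± 0.16, and these calls were lost in 4 of the 18 fits that left out 1 library. The value of Ndufb6 is also uncertain, because 39% of its exon bases overlap Smim27. Between 10 and 54 members were lower when 1 library was left out, the 10 without formalin replicate 2, and 14 and 13 without formalin replicate 1 and CFA replicate 1. With the 9 BNST libraries alone, 1 member was lower. Here too, markers of other tissue differed: 6 of 7 striatal markers were higher after formalin, and 5 of 6 markers of habenula and thalamus were lower, in the direction of the members. Their part was not tested.

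In the prelimbic mPFC the members lay slightly above control after both injections, and almost none passed in the model of 18 libraries. The summed level was 5422, 5457 and 4804 CPM in control libraries, 5904, 5701 and 5982 CPM after formalin and 5917, 5811 and 5815 CPM after CFA. On this scale both injected groups lay above the control group without overlap. In TPM the sums were 12263, 12260 and 10873 in control libraries and 12466, 11848 and 11890 after formalin, so these overlapped. The CFA sums, at 12764 to 12960, still lay above control. Short genes that are not members were also higher in the mPFC. Those at 10 CPM or more with exon lengths up to 800 bp had a median log2FC of 0.20 after formalin and 0.21 after CFA. Members of that length had 0.12 and 0.21. Of 74 members at 10 CPM or more, 55 lay above the median of their length class after formalin and 66 after CFA.

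After formalin, 76 of 82 members in the mPFC had a log2FC above 0, with a median of 0.16, beside −0.004 for all genes. The median of the members was smaller with the length offset of protein-coding genes, as given below. In edgeR 1 member passed, beside 0.337% of all genes higher. DESeq2 passed 4 members, limma-voom 1, and a fit of the 9 mPFC libraries alone 14. The share of all genes that passed in these other fits is not given, so their counts do not compare members with other genes. The member that passed in the edgeR model of 18 libraries was Ndufv2, on chromosome 17 (66078638 to 66101559). It held 55.6, 54.6 and 51.1 CPM in control libraries and 69.8, 66.7 and 75.1 CPM after formalin, without overlap, and rose by a log2FC of 0.39 ± 0.08 (adjusted p = 0.032). The call was lost with the replicate number as a block, which left 0 members, and held in 11 of the 18 fits that left out 1 library. It was lost without any of the 3 control libraries, without formalin replicate 1 or 3, and without CFA replicate 1 or 3 of the mPFC, and 3 members passed without BNST CFA replicate 2. Atp5f1, the b subunit of the peripheral stalk of complex V, had a log2FC of 0.32 ± 0.08 (adjusted p = 0.057), and Ndufs1 of 0.24 ± 0.06 (adjusted p = 0.090). The groups did not overlap for 33 members, all higher, beside 13.0% of all genes. The subunits encoded by mitochondrial DNA were the highest here of all groups, at 61789 to 70767 CPM in sum against 41155 to 54296 CPM in mPFC control libraries, and mt-Nd1 was the gene of these 13 that passed (log2FC 0.60 ± 0.12, adjusted p = 0.032). Cycs was higher as well, at 0.47 ± 0.07 (adjusted p = 0.023).

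After CFA, 79 members in the mPFC had a log2FC above 0, with a median of 0.19, beside 0.0 for all genes. The median of the members was again smaller with the length offset of protein-coding genes. None passed in edgeR, beside 0.827% of all genes. In edgeR an unadjusted p under 0.05 was found for 24 of 82 members, beside 2614 of 18994 genes tested. DESeq2 passed 1 and limma-voom passed 0, and a fit of the 9 mPFC libraries alone passed 10. The share of all genes that passed in these other fits is not given. The groups did not overlap for 42 members, all higher, beside 13.4% of all genes. The smallest adjusted p was that of Ndufb10, an accessory subunit of complex I, which held 54.0, 52.4 and 50.1 CPM in control libraries and 61.1, 62.8 and 67.8 CPM after CFA (log2FC 0.29 ± 0.08, adjusted p = 0.10). Ndufv2 followed at 0.26 ± 0.08 (adjusted p = 0.115). Between formalin and CFA in the mPFC, no member passed in edgeR, beside 1.76% of all genes, with a median log2FC of −0.03. There 5 of 82 members had an unadjusted p under 0.05 in edgeR, beside 2927 of 18994 genes tested. DESeq2 passed 2 members and limma-voom 0. The member with the smallest adjusted p was again Ndufb2, at −0.37 ± 0.10 (adjusted p = 0.073).

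**Figure D5:**
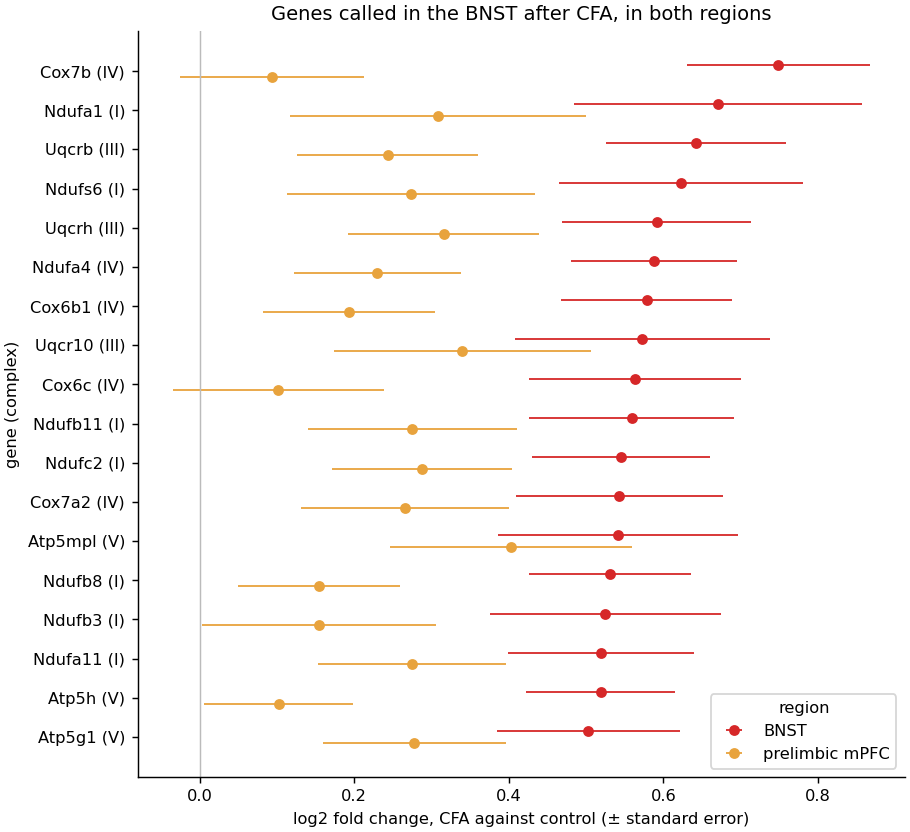
The log2FC after CFA with its SE for the 18 members that were DEGs in the BNST, in the BNST and in the prelimbic mPFC, with the complex in brackets. Cox7b has a log2FC of 0.75 in the BNST and 0.09 in the mPFC.

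Whether a change differed between the regions was tested as an interaction. For CFA, Cox7b was the 1 member of 82 that passed (1.22%), beside 1.37% of all genes with a larger change in the BNST. In the mPFC it held 63.1, 57.4 and 48.5 CPM in control libraries and 63.2, 56.0 and 61.0 CPM after CFA, so the groups overlapped there. Its change was larger in the BNST by 0.66 ± 0.17 on the log2 scale (adjusted p = 0.031), and this call was lost in 8 of the 18 fits that left out 1 library, with 0 members left in each. Without BNST control replicate 1, 5 members passed, and with the animal number in the study's tables as a block 2 did. Atp5h followed at 0.42 ± 0.14 (adjusted p = 0.094). The median region difference of the members was 0.19. In edgeR 12 of 82 members had an unadjusted p under 0.05, beside 3693 of 18994 genes tested. For formalin, no member passed in edgeR, DESeq2 or limma-voom, beside 0.163% of all genes. The median difference was −0.10, and 6 of 82 members had an unadjusted p under 0.05 in edgeR, beside 2779 of 18994 genes tested.

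In control mice, 18 members were higher in the BNST than in the mPFC and 2 were lower, beside 21.0% of all tested genes higher and 18.7% lower. Complex I held 13 of the 18. With the animal number in the column names of the study's tables as a block, 7 were higher and 3 were lower. By these numbers BNST control replicate 1 and mPFC control replicate 2 had no partner in the other region. Without BNST control replicate 3, 30 were higher and 1 was lower, and 7 were DEGs, whereas 7 were higher without BNST control replicate 1 or without mPFC control replicate 3, with 1 DEG each. The DEGs in the main fit were 3 of the 82 members, a smaller share than the 14.7% of all genes called higher. These were Ndufb2, Ndufc1 and Ndufv3, all accessory subunits of complex I. Ndufb2 held 27.6, 27.3 and 22.6 CPM in the BNST and 17.6, 18.7 and 16.1 CPM in the mPFC, so the regions did not overlap (log2FC 0.56 ± 0.10, adjusted p = 0.00028). Ndufc1 also did not overlap (log2FC 0.53 ± 0.13, adjusted p = 0.0027). Ndufv3, which sits beside the NADH-binding core, held 35.0, 31.1 and 35.5 CPM in the BNST and 23.5, 24.8 and 23.2 CPM in the mPFC, without overlap (log2FC 0.51 ± 0.10, adjusted p = 0.00068). Ndufv2 and Ndufs1 had the smallest adjusted p, with a log2FC of 0.44 ± 0.08 and 0.37 ± 0.06 (adjusted p = 0.00016 and 0.00017). The 2 lower members were the most abundant ones of complex IV. Cox8a held 181, 155 and 153 CPM in the BNST and 207, 209 and 193 CPM in the mPFC, without overlap (log2FC −0.32 ± 0.09, adjusted p = 0.0074), and Cox6a1 had a log2FC of −0.31 ± 0.10 (adjusted p = 0.017). Oligodendrocyte markers also differed between these groups, with 6 of 6 higher in the BNST, at 6464 to 9359 CPM in sum against 2389 to 3745 CPM, and their part in the region difference was not tested.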

How the data were processed

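Per the labels, the authors used Trimmomatic 0.39 on the reads, HISAT2 2.2.1 to align to GRCm38, and featureCounts 2.0.1 for counts. The deposited values are raw counts, whole numbers without normalization. Whether counting used strand, or split reads between near-identical genes, is not given in the sources used here, and 18 members share over 5% of their 100-base windows with other genes. Symbols, positions and exon lengths came from GENCODE M21.

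Counts were tested in R 4.3.3 with edgeR 4.0.16 after filterByExpr (minimum count 10, minimum total 15), with TMM factors and 1 quasi-likelihood model of 6 groups with 12 residual degrees of freedom. The script was tested on simulated data. Alternatives were DESeq2 1.42.0, limma-voom (limma 3.58.1), RLE factors, other filters, other sets of libraries, replicate blocks and leaving out each library. The exon length offsets were added after seeing the data.

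Members and lists were chosen with earlier results of these data known. Values were printed for the 10 members of each comparison with the largest called change, or the 4 smallest adjusted p where under 4 were called, for the 2 most abundant members of each complex, for isoform sets and for catalytic subunits. The values of 1 member that this rule names are not reported here. Members shown with promoters were chosen after their values were seen. Lanes and animal numbers came from headers of the supplementary tables.

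Both regions came from the same mice by the study's methods, but the labels tie no libraries to a mouse. The mouse therefore entered only as an alternative, by the animal numbers. These numbers gave 8 pairs, with no partner for BNST control replicate 1 or mPFC control replicate 2. Replicate numbers within a region were not taken as pairs: residuals of libraries with the same number and region correlated at −0.19 to 0.31, above 0.1 in 4 of 18 pairs, and those of the same animal number at −0.03 to 0.17, above 0.1 in 2 of 8.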

Additional observations from a re-analysis of the deposited data

Results flagged for a closer look

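Cox7b was flagged because its change after CFA differed between the regions by the interaction test: the change in the BNST exceeded that in the mPFC by 0.66 on the log2 scale, with an adjusted p of 0.031 in edgeR's quasi-likelihood test. All 3 BNST CFA libraries were above all 3 BNST control libraries, whereas the mPFC groups overlapped. In this test 1.22% of the members passed, beside 1.37% of all genes with a larger change in the BNST. The call was lost in 8 of the 18 fits that left out 1 library. No explanation was tested.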

How the results depend on the processing

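Counts of members that passed, unless DEGs are named, varied most with the choice of libraries and with exon length. The share of all genes is given only for the main fit and for the length offset of protein-coding genes. Counts from the other fits therefore do not compare members with other genes. Lane 2 holds 1 BNST control library, assumed to vary like the other groups in each comparison with BNST controls. Lane 2 libraries alone gave, after formalin in the BNST, 4 members, 1 DEG and a median log2FC of 0.32, and after CFA 49 DEGs and a median of 0.60. They gave 25 members between formalin and CFA in the BNST, 3 after formalin in the mPFC, 1 between formalin and CFA there, and 11 with a median of −0.034 between regions. The region differences then had a median of 0.15 for formalin, and 17 members, 11 DEGs and a median of 0.41 for CFA. Fits of 1 region passed 26 members after CFA in the BNST, 1 and 0 DEGs between formalin and CFA there, and in the mPFC 14 after formalin, 10 after CFA and 3 between them. DESeq2 gave 4, 1 and 2 for these mPFC comparisons, and 2 for the CFA region difference.

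The length trend of protein-coding genes as an offset gave, in the BNST, 21 members, 1 DEG and a median of 0.21 after CFA, and 13, 1 DEG and −0.19 between formalin and CFA. In the mPFC it gave 2 members and a median of 0.067 after formalin, a median of 0.12 after CFA and 1 member between them, and the CFA region difference had a median of 0.077. The length trend of all genes gave 9 DEGs between formalin and CFA in the BNST, 2 members after formalin in the mPFC, and 10 members with 1 DEG between regions. With GC content added these were 9, 0, and 10 with 0 DEGs, and the CFA region difference had 0 DEGs. The cause of these shifts was not tested.

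A replicate block left 0 members after formalin in the mPFC and moved no other count of calls by over 1.5 times, with 49 members and 18 DEGs after CFA in the BNST. A block could not be fitted to BNST against mPFC within regions. A replicate block by animal number gave 10 members there, and 2 for the CFA region difference, both DEGs.

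Leaving out 1 library gave these ranges. Formalin in the BNST gave 0 to 2 DEGs, 0 to 4 members and a median of −0.03 to 0.13. CFA in the BNST gave 4 to 34 DEGs, 33 to 59 members and 0.30 to 0.47. Formalin against CFA in the BNST gave 1 to 12 DEGs, 10 to 54 members and −0.39 to −0.28. In the mPFC, formalin gave 0 to 3 members and 0.11 to 0.21, CFA gave 0.15 to 0.23, and formalin against CFA gave 0 to 1 members and −0.04 to −0.02. The regions differed by 1 to 7 DEGs, 9 to 31 members and 0.07 to 0.26. The region difference ranged from −0.20 to −0.00 for formalin, and for CFA over 0 to 4 DEGs, 0 to 5 members and 0.12 to 0.28. Over all alternatives, values of single genes lost significance in 382 instances, kept their direction and side of the threshold in 2241, and turned direction in none.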
